A study of Mus musculus with 5 samples.

Results

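The RNAs Oip5os1 (also called Cyrano), Nrep, Bcl2l11, Plagl1 and Lrrc58, which are known to trigger the decay of microRNAs, were followed across the cell types of the late fetal mouse lung. They were taken by their symbols, which gave 5 of the 32285 genes in the count tables. The question was where in the lung each trigger is expressed and whether its level differs between the 2 genotypes of the study.

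Lungs of E18.5 mouse embryos were dissociated into cells and profiled by 3′ single-cell RNA sequencing in droplets, which counts unique molecular identifiers (UMIs, about 1 per captured RNA molecule) for each gene and each cell barcode. The Het group held 2 libraries of embryos labelled Zswim8+/- (Het1 and Het2), and the KO group held 3 libraries labelled Zswim8-/- (KO1, KO2 and KO3). Each library came from the lungs of 1 embryo, and red blood cells had been lysed before loading. The Zswim8 allele, the strain and any litter are not given in the sources used here, no Zswim8+/+ lung was analysed here, and all p-values measure the spread between these 5 libraries only.

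MicroRNAs guide Argonaute proteins to partly complementary sites in messenger RNAs and lower the output of those messages. A trigger reverses this relation: it pairs with the seed of a microRNA and, beyond a short bulge, also with its 3′ end, and the microRNA is then destroyed. ZSWIM8 is the adaptor of a Cullin-3 ubiquitin ligase that recognises Argonaute in this state and marks it for the proteasome. Oip5os1 is a long noncoding RNA that directs the decay of miR-7, and the Nrep 3′ UTR acts on miR-29b. The messages of Bcl2l11, which encodes the cell death protein BIM, and of Plagl1 and Lrrc58 act on miR-221 and miR-222 (Bcl2l11) and on miR-322 and miR-503 (the others). MicroRNAs themselves are not counted by a poly(A)-primed 3′ assay, so the values below are levels of the triggers, not of the microRNAs.

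The mature microRNAs are printed first because the triggers pair with both of their ends. They come from RefSeq (GRCm38.p6), are written 5′ to 3′, and carry the seed (bases 2 to 8) in capitals.
miR-7a-5p: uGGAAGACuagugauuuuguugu
miR-7b-5p: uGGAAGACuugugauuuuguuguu
miR-29a-3p: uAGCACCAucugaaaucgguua
miR-29b-3p: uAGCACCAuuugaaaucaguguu
miR-29c-3p: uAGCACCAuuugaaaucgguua
miR-221-3p: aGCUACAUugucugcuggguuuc
miR-222-3p: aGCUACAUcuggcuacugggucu
miR-322-5p: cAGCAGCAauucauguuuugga
miR-503-5p: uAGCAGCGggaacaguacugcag
The seed is the same within the miR-7 pair, within the 3 miR-29 members and within miR-221 and miR-222. The seeds of miR-322 and miR-503 share bases 2 to 7 and differ at base 8. 

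In each trigger, the site with the longest Watson-Crick run to the 3′ end of its microRNA was located on the GRCm38 transcripts of the GENCODE M21 annotation. The windows of 30 bases below are on the transcript strand, end at the base that faces base 1 of the microRNA, and carry the seed match and the 3′ run in capitals.
Oip5os1, site for miR-7a, chr2:119602132-119602161, plus strand, exon 3 of 3: taagaACAACAAAATCACcaatGTCTTCCa
Bcl2l11, site for miR-221, chr2:128162344-128162373, plus strand, exon 4 of 4: cactaatgtcagAACCCAGCgtATGTAGCa
Plagl1, site for miR-322, chr10:13129420-13129449, plus strand, exon 6 of 6: acgtgataagaTCCAAAACATGAGCTGCTa
Lrrc58, site for miR-503, chr16:37885016-37885045, plus strand, exon 4 of 4: tttcgtggCTGCAGTtgtgaaaCGCTGCTa
The Oip5os1 site lies in a noncoding exon and the other sites lie in 3′ UTRs. The Oip5os1 run of 13 bases faces bases 11 to 23 of miR-7a, and grows to 14 bases with miR-7b. The Bcl2l11 run of 8 bases faces bases 14 to 21 of miR-221 and shortens to 6 bases with miR-222. The Plagl1 run of 12 bases faces bases 11 to 22 of miR-322, and the Lrrc58 run of 7 bases faces bases 17 to 23 of miR-503.

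Seed matches alone were common and the long runs of the printed sites were not. Among 32158 genes with an annotated transcript, searched on the transcript strand only, GTCTTCC (miR-7) was found in 21.5%, ATGTAGC (miR-221 and miR-222) in 11.99%, TGCTGCT (miR-322) in 37.7% and CGCTGCT (miR-503) in 14.4%. None of 25 Plagl1 transcripts held TGCTGCT, and the printed Plagl1 site rests on GCTGCT, which faces bases 2 to 7, is contained in the 2 longer motifs and was found in 64.3% of genes. A run at least as long, behind the same seed match, was found in 1 gene for the Oip5os1 site (0.00311%), 13 genes for Bcl2l11 (0.0404%), 1 gene for Plagl1 (0.00311%) and 60 genes for Lrrc58 (0.187%). For the other microRNA of the last 2 triggers the best sites lay in coding sequence and had shorter, more common runs. Lrrc58 had 3 bases with miR-322 behind TGCTGCT (a run as long in 35.7% of genes). Plagl1 had 6 bases with miR-503 behind GCTGCT (7.92% of genes). A match is a description of the letters and does not show that a site acts in these lungs.

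After filtering, 3051 to 4634 cells remained per library, with 40973681 to 65248152 UMIs in them. Zswim8 itself, the gene named in the genotype, stood at 37.8 ± 1.44 CPM (UMIs of the gene scaled by the total UMIs of the cells summed; mean ± SD, n = 2) in Het and 39.6 ± 1.35 CPM (n = 3) in KO, with a log2 fold change of 0.04 and an edgeR adjusted p of 0.692. The 3′ tag counts thus did not separate the genotypes, the labels rest on the submitters alone, and "KO" below means a library labelled KO. By Y-linked UMIs both Het libraries and KO3 were male, and KO1 and KO2 were female. Of 59 clusters, 41 were named into 26 classes by marker genes, and a class name below means cells that resemble that type by those markers. Unnamed clusters held 28.4% to 34.8% of a library's cells, and mixed cells, in which 3 or more markers of a second lineage were found, made up 7.73% to 11.6%. Libraries shared 33 of 18836 distinct barcodes of kept cells.

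The 5 triggers were expressed in different parts of the lung. Plagl1 was mainly a mesenchymal transcript, with 67.6% to 82.8% of its UMIs in a library in mesenchymal cells, and Nrep had 37.4% to 51.3% there. Bcl2l11 had 54.8% to 66.4% of its UMIs in immune cells. Oip5os1 and Lrrc58 were spread over all 4 lineages, with 29.8% to 41.7% and 32.6% to 50.9% of their UMIs in immune cells. Among the 18 classes that held 20 cells or more in each library, the highest class mean exceeded the lowest by 3.89-fold for Oip5os1, 18.3-fold for Bcl2l11, 21.3-fold for Lrrc58, 180-fold for Nrep and 483-fold for Plagl1. These ratios compare classes within 1 gene, and levels are not compared between genes because 3′ counts of different genes are not on a common scale.

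**Figure D1:**
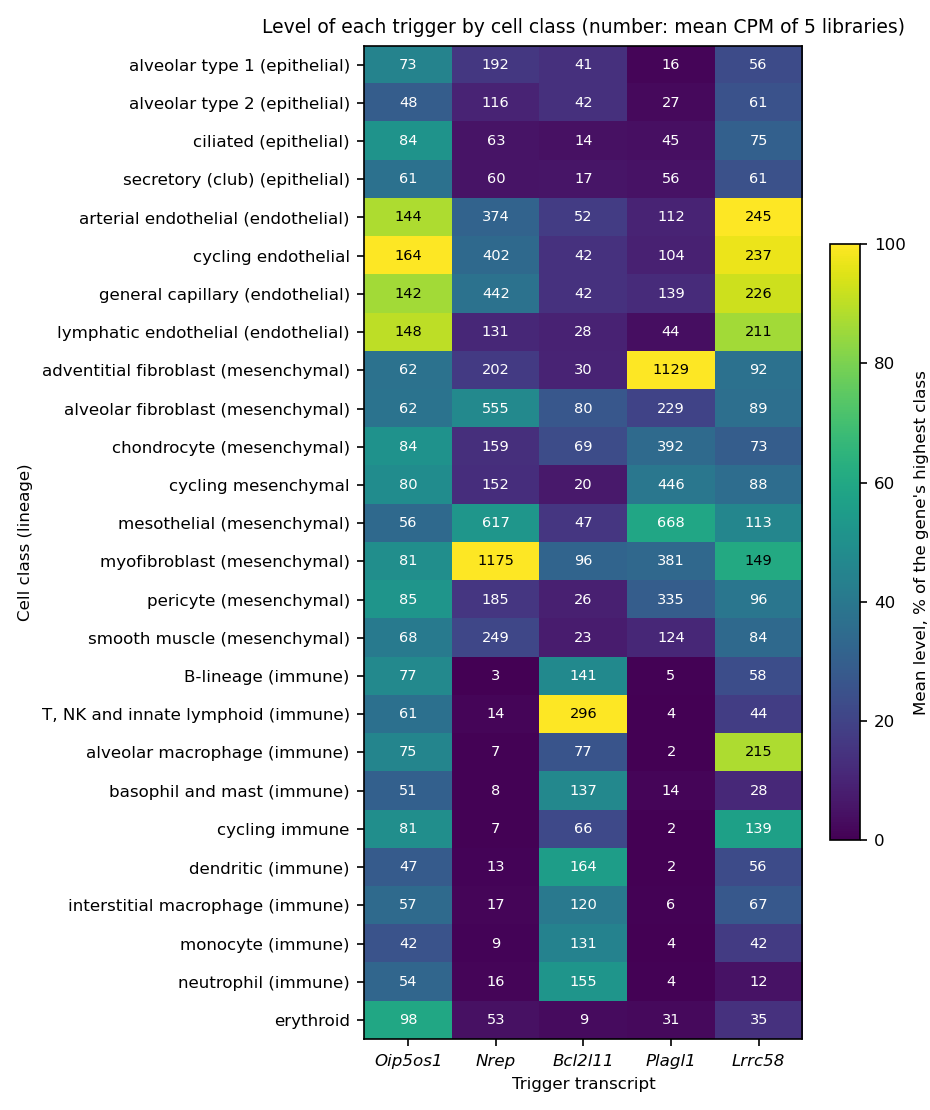
Mean level of each trigger in the 26 classes. Numbers are mean CPM over the 5 libraries, and colour is the percentage of the same gene's highest class. Oip5os1 and Lrrc58 peak in endothelial classes, Nrep in myofibroblasts, Plagl1 in adventitial fibroblasts and Bcl2l11 in T, NK and innate lymphoid cells.

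In sums over all kept cells of a library, 3 of the 5 triggers differed between the genotypes at an edgeR adjusted p under 0.05, against 4.28% of the 17747 genes tested. Oip5os1 stood at 88.8 and 88.3 CPM in Het and at 65.9, 67.3 and 67.9 CPM in KO, Lrrc58 at 125 and 130 against 102, 107 and 111 CPM, and Nrep at 139 and 149 against 173, 188 and 197 CPM. Oip5os1 and Lrrc58 were thus lower in every KO library and Nrep was higher. The log2 fold changes were -0.43 (SE 0.05, edgeR adjusted p = 0.0193) for Oip5os1, -0.28 (SE 0.05, adjusted p = 0.0453) for Lrrc58 and 0.34 (SE 0.07, adjusted p = 0.0493) for Nrep. Of 13 alternatives run for these sums, the call held in 8 for Oip5os1, in 3 for Lrrc58 and in 4 for Nrep. Plagl1 (91.1 and 106 CPM in Het, 188, 136 and 175 CPM in KO) had the largest difference in size, 0.72 (SE 0.15), but did not pass the test (edgeR adjusted p = 0.0586). Bcl2l11 stood at 60.8 and 60.6 against 69.5, 66.2 and 63.9 CPM, a difference of 0.10 (SE 0.06, adjusted p = 0.343).

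The groups did not overlap for all 5 triggers, a pattern that 47% of all genes tested showed as well. Both Het libraries were male and 2 of the 3 KO libraries female, and with sex in the fit no trigger passed (Oip5os1 -0.43, edgeR adjusted p = 0.155). None passed without Het1, Het2 or KO3 (Oip5os1 adjusted p 0.173, 0.167 and 0.0542), and without KO2 Plagl1 passed (0.85, adjusted p = 0.0359) while Lrrc58 and Nrep did not. A sum over cells cannot tell fewer cells of a type from less RNA per cell. Mesenchymal cells, in which Plagl1 and Nrep were high, made up 12.7% and 14.6% of Het cells and 29.2%, 18.54% and 22.2% of KO cells. Of all UMIs, unnamed cluster 22 held 11.3% and 11.5% in Het and 2.82%, 3.74% and 4.07% in KO. Unnamed cluster 9 held 1.69% and 2.91% in Het and 10.4%, 15.4% and 15.3% in KO. The part of these shares in the whole-library differences was not tested.

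**Figure D2:**
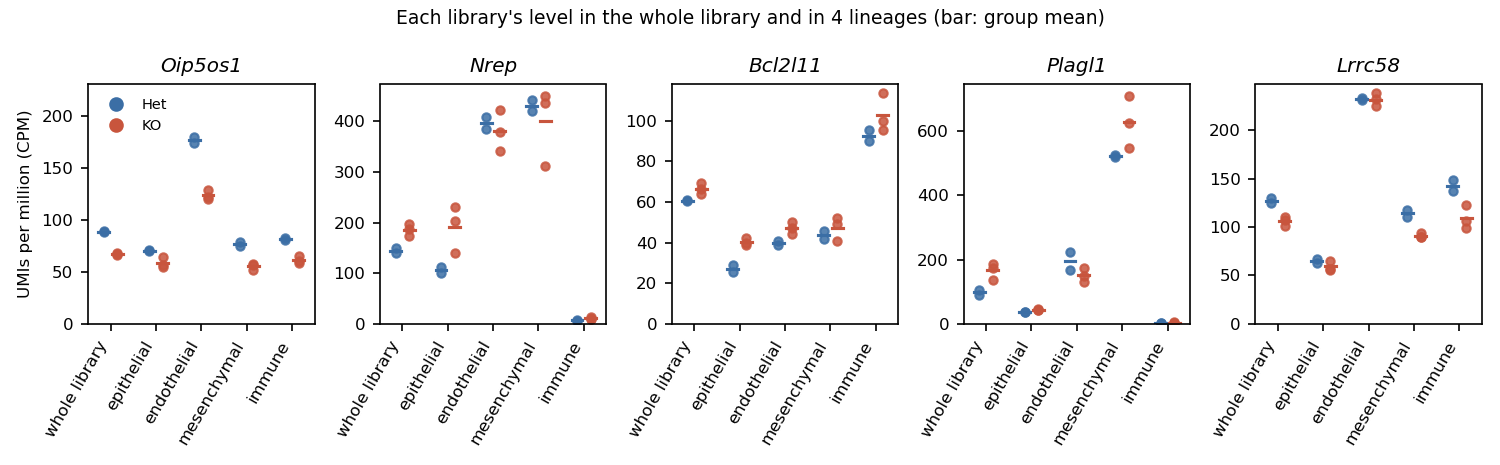
Level of each trigger in every library (CPM, linear axis from 0), in the whole library and in sums over the cells of 4 lineages. Points are libraries and bars are group means. Oip5os1 is lower in all KO libraries than in both Het libraries in each of the 5 sums.

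Within lineages, 5 of 20 comparisons passed. The epithelial sum had 2 of 5 triggers called, against 13.5% of its genes, the endothelial sum 1 of 5 against 5%, and the immune sum 2 of 5 against 7.98%. In the mesenchymal sum 0 of 5 passed with edgeR, where only 0.0506% of genes did. In that sum 3 of the 5 had an unadjusted edgeR p under 0.05, against 12.7% of genes, and DESeq2 called 1, Oip5os1, against 0.998% of genes. In the 9 classes that held 50 cells or more in each library, 4 of 43 comparisons passed, against 1.89% of all gene and class pairs. Among 9 further classes with 20 to 49 cells in the smallest library, 1 of 41 passed, against 0.782%. These smaller classes were added after the data were seen.

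Oip5os1, the miR-7 trigger, was an endothelial-enriched transcript found in every class. Its level was 164 ± 25.5 CPM (SD, n = 5) in cycling endothelial cells, 144 ± 29.5 in arterial endothelial cells, 142 ± 32.5 in general capillary cells and 148 ± 55.7 in lymphatic endothelial cells, of which 1 library had only 5. Each of these 4 classes was above 21 other classes in every library, and no neighbours in the order of classes were separated in every library. The lowest level was 42.2 ± 6.62 CPM in monocytes. Red-cell barcodes, used as a measure of free RNA, held 0.0987 to 0.165 Oip5os1 UMIs each, and every class was above the red-cell value of its own library. In the cycling endothelial class the values were 175 and 203 CPM in Het and 137, 149 and 157 CPM in KO, the pattern seen in most classes.

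Oip5os1 was lower in KO in cells of several lineages. Endothelial sums stood at 174 and 180 CPM in Het and 122, 120 and 129 CPM in KO (log2 fold change -0.49, SE 0.08, edgeR adjusted p = 0.0137), and immune sums at 80.3 and 82.7 against 58.6, 60.4 and 64.9 CPM (-0.47, SE 0.05, adjusted p = 0.0027). The groups did not overlap in either lineage. Oip5os1 was 74.8 CPM in alveolar and 56.5 CPM in interstitial macrophages, whose shares of cells differed between the groups (values given for Lrrc58). The part of these shares in the immune sums was not tested. Named classes held 200 of 415 and 131 of 292 endothelial cells in Het. In KO they held 243 of 287, 265 of 290 and 248 of 294, and unnamed clusters held the rest. Mesenchymal sums (79.0 and 75.2 against 51.9, 56.9 and 57.0 CPM) gave -0.45 (edgeR adjusted p = 0.118), and epithelial sums (69.5 and 70.7 against 56.7, 64.1 and 54.7 CPM) gave -0.30 (adjusted p = 0.069), neither of which passed. The immune call held in all 16 alternatives run for it, with adjusted p between 8.9e-08 and 0.0463. The endothelial call was lost with sex in the fit (adjusted p = 0.170), with a replicate block (0.0775) and without Het1 or Het2 (0.137 and 0.142).

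By class, Oip5os1 had a lower fitted level in KO in 17 of 18 classes, and every KO library lay below both Het libraries in 14 of the 18, a pattern shown by 12% of all gene and class pairs. The exception to the first count was the erythroid class (73.0 and 89.6 against 155, 107 and 65.9 CPM). The test was passed in alveolar macrophages (86.9 and 83.1 against 62.4, 67.5 and 74.0 CPM; log2 fold change -0.43, edgeR adjusted p = 0.0057), where 9.63% of genes passed. It was passed in cycling immune cells (93.6 and 101 against 61.5, 76.8 and 73.2 CPM; -0.48, adjusted p = 0.014), where 2.38% of genes passed. Myofibroblasts had the largest fall of the classes that passed, from 120 and 108 CPM to 51.6, 70.8 and 56.0 CPM (-0.94, SE 0.19, edgeR adjusted p = 0.0074), where 1.85% of genes passed. Leaving out Het1 ended the myofibroblast call (-0.83, adjusted p = 0.158), and leaving out Het1 or Het2 ended those in alveolar macrophages (0.0760 and 0.0522) and cycling immune cells (0.0832 and 0.233). Sex in the fit ended all calls in classes (myofibroblasts -1.05, adjusted p = 0.0678). Of 15 alternatives, the call held in 11 for alveolar macrophages, 12 for cycling immune cells and 12 for myofibroblasts, and not every loss is named here. The fall did not differ between lineages beyond the spread (genotype by lineage, edgeR adjusted p = 0.599).

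Oip5os1 lies at chr2:119594297-119607502 on the plus strand (GRCm38, GENCODE M21, listed there as the lincRNA 1700020I14Rik). Its neighbour Oip5, a gene of chromosome segregation, lies on the minus strand at chr2:119609512-119618469, 2009 bases away and without overlap. Oip5 was a transcript of dividing cells, with its highest level in cycling immune cells (14.8 ± 1.78 CPM, SD, n = 5). In the epithelial sum Oip5 was higher in KO (mean 0.608 CPM in Het and 1.78 CPM in KO; log2 fold change 1.501, SE 0.42, edgeR adjusted p = 0.0497). These sums rest on 10 and 7 Oip5 UMIs in Het and 11, 35 and 22 in KO. Of them 2 and 3 in Het and 8, 25 and 15 in KO lay in 1 unnamed cluster (cluster 9, described with Nrep), which held a larger share of epithelial cells in KO, and its part in the difference was not tested. In the whole library it did not pass (0.30, adjusted p = 0.408).

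**Figure D3:**
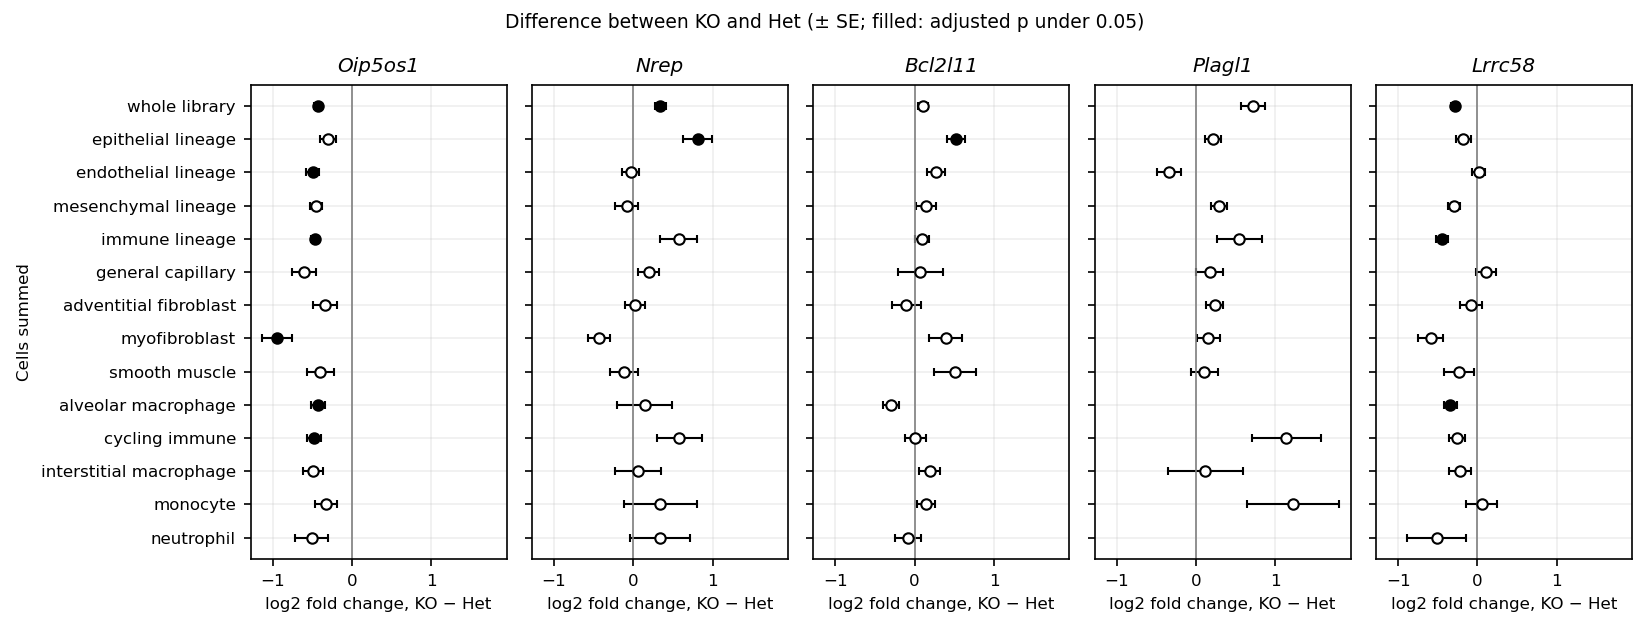
Log2 fold change (KO minus Het, horizontal axis) of each trigger with its standard error, in the whole library, 4 lineages and the 9 classes of 50 cells or more. Filled points passed an edgeR adjusted p of 0.05. Oip5os1 lies left of 0 in all 14 sums, and Plagl1 has no point in alveolar macrophages and neutrophils, where it was too low to be tested.

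Lrrc58, which encodes a leucine-rich repeat protein, had an order of classes that began with endothelium and alveolar macrophages. Its level was 245 ± 33.3 CPM (SD, n = 5) in arterial endothelial cells, 237 ± 11.5 in cycling endothelial cells, 226 ± 13.2 in general capillary cells and 215 ± 22.4 in alveolar macrophages. Of these, cycling endothelial cells were above general capillary cells in every library, and the other neighbours were not separated. Interstitial macrophages (67.0 ± 6.59 CPM) and monocytes (42.1 ± 9.63 CPM) were lower, and neutrophils were lowest (11.5 ± 2.90 CPM, or 0.035 to 0.073 UMIs per cell, against 0.0106 to 0.0343 per red-cell barcode).

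Lrrc58 was lower in KO in immune cells. The immune sums were 137 and 149 CPM in Het and 98.8, 107 and 123 CPM in KO, all KO values below both Het values (log2 fold change -0.44, SE 0.08, edgeR adjusted p = 0.0137). The call was lost with sex in the fit (-0.32, adjusted p = 0.103) and without Het1 or Het2 (0.0617 and 0.150). In alveolar macrophages the values were 225 and 245 against 184, 208 and 213 CPM (-0.34, SE 0.09, edgeR adjusted p = 0.0237), and there the call ended with scaling by library size alone (-0.21, adjusted p = 0.108), which moved the median log2 fold change of all genes in this class from 0.010 to 0.136, and without Het1 or Het2 (0.0697 and 0.322). Alveolar macrophages made up 11.2% and 12.9% of Het cells and 3.64%, 5.28% and 6.28% of KO cells. Interstitial macrophages, in which Lrrc58 was lower, made up 4.38% and 4.60% of Het cells and 10.3%, 11.5% and 10.8% of KO cells. The part of these shares in the immune sum was not tested. In myofibroblasts Lrrc58 stood at 182 and 190 against 133, 110 and 127 CPM, which did not pass (-0.59, adjusted p = 0.0553). In endothelial sums it was 234 and 231 CPM in Het and 225, 238 and 232 CPM in KO, with overlapping groups (0.02, SE 0.08, adjusted p = 0.931). Lrrc58 lies at chr16:37868389-37888858 on the plus strand, and a processed pseudogene on the same strand, Gm15725, overlaps it, so reads of the 2 may not be told apart.

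Nrep, which encodes neuronal regeneration related protein, was highest in stromal and endothelial classes. Myofibroblasts had 1394 and 1384 CPM in Het and 849, 1058 and 1187 CPM in KO, above all 25 other classes in every library. Mesothelial cells (617 ± 133 CPM, SD, n = 5) and alveolar fibroblasts (555 ± 126 CPM) came next, followed by general capillary (442 ± 51.9), cycling endothelial (402 ± 56.3) and arterial endothelial cells (374 ± 38.2). Separated neighbours were myofibroblasts above mesothelial cells, general capillary above cycling endothelial, arterial endothelial above smooth muscle (249 ± 41.8), alveolar type 2 (116 ± 19.8) above ciliated cells (63.1 ± 6.48), and erythroid cells (53.4 ± 19.6) above interstitial macrophages (17.4 ± 4.67). In immune classes Nrep ran from 2.53 to 17.4 CPM. Interstitial macrophages, the highest of these, held 0.113 to 0.232 Nrep UMIs per cell, above the red-cell barcodes of their own library (0.0420 to 0.138) in all 5 libraries. Alveolar macrophages held 0.059 to 0.135 per cell, and in KO1 they were below the red-cell value.

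Of the 4 lineages, Nrep passed the test in epithelial cells, but the test of a difference between lineages did not pass (edgeR adjusted p = 0.0615). That second test did pass in some alternatives, given below with the genotype by lineage terms. Epithelial sums were 100 and 112 CPM in Het and 140, 204 and 231 CPM in KO (log2 fold change 0.81, SE 0.18, edgeR adjusted p = 0.0251), with KO1 the lowest of the KO libraries. Mesenchymal sums (443 and 420 against 313, 451 and 437 CPM; -0.08, adjusted p = 0.850) and endothelial sums (386 and 408 against 342, 422 and 380 CPM; -0.03, adjusted p = 0.909) overlapped. The epithelial call ended when mixed cells were left out (0.51, adjusted p = 0.209) and when only cells of named classes were summed (0.02, adjusted p = 0.951), and it was lost without Het1 (0.70, 0.175), without Het2 (0.90, 0.0844) or without KO2 (0.77, 0.0613). Summed over the 6 mesenchymal lineage markers, the epithelial sums held 72.1 to 104 CPM in Het and 102 to 381 CPM in KO, 6 of 6 markers had a higher KO mean and none was at 0; without mixed cells the ranges were 28.0 to 45.9 and 27.0 to 57.0 CPM.

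The makeup of the epithelium also differed between the groups, and its part in the Nrep difference was not tested. An unnamed cluster that carried markers of both alveolar types and was led by Foxp2 (cluster 9) made up 4.12% and 8.46% of epithelial cells in Het and 29.8%, 36.6% and 37.1% in KO. Nrep in that cluster was 221.5 and 217 CPM in Het and 181, 278 and 296 CPM in KO, above each of the 4 named epithelial classes in every library. Its median of 16477 to 34310 UMIs per cell, highest in KO2 and KO3, was above the 9714 to 12708 of all kept cells. Within alveolar type 1 cells Nrep was 167 and 184 against 161, 239 and 208 CPM (0.24, edgeR adjusted p = 0.607), and in alveolar type 2 cells 109 and 98.6 against 117, 150 and 108 CPM (0.19, adjusted p = 0.646), both overlapping. In secretory (club) cells Nrep was 37.8 and 39.6 CPM in Het and 72.8, 72.5 and 77.8 CPM in KO (0.84, SE 0.17, edgeR adjusted p = 0.0201), where 1.06% of genes passed. This class joined cluster 41, led by Krt15, and cluster 51, led by Deup1, while cluster 16, led by Scgb1a1, stayed unnamed. Cluster 51 held 17 of 63 and 13 of 45 of the class in Het, and 18 of 44, 13 of 37 and 7 of 30 in KO. The smallest secretory class held 30 cells, this was the only trigger call among the 9 smaller classes, and no alternative was run for it.

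**Figure D4:**
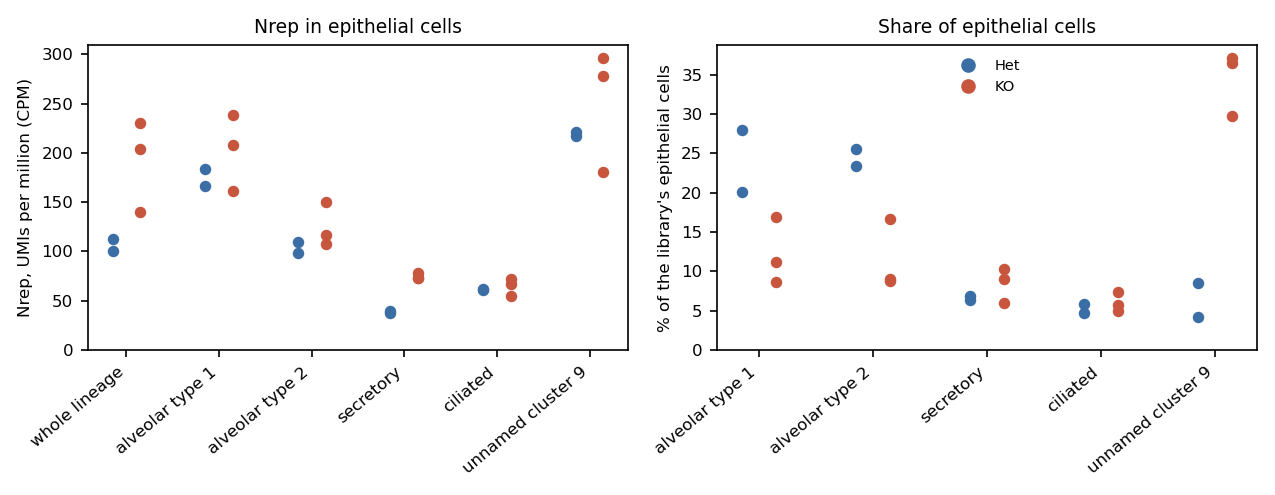
Left, Nrep in epithelial sums of every library (CPM); right, the percentage of a library's epithelial cells in each class and in unnamed cluster 9. Points are libraries. The groups are apart in the whole lineage and in secretory cells on the left, and cluster 9 is larger in all KO libraries on the right.

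Nrep in myofibroblasts, its highest class, was lower in every KO library, but the difference did not pass (-0.43, SE 0.14, edgeR adjusted p = 0.147). Nrep lies at chr18:33437019-33464029 on the minus strand. Its window of 30 bases with the seed match for miR-29 lies at bases 2159 to 2188 of a transcript of 3311 bases, in the 3′ UTR in exon 3 of 3. The run behind it was 8 bases with miR-29b (bases 15 to 22) and 3 bases with miR-29a or miR-29c, and 16 genes (0.0498%) held a run at least as long for miR-29b. The seed match TGGTGCT was found in 24.5% of genes.

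Bcl2l11, whose protein BIM promotes apoptosis, was highest in immune classes. T, NK and innate lymphoid cells, of which the smallest library held 10, stood at 217 and 352 CPM in Het and 258, 258 and 394 CPM in KO, above all 25 other classes in every library. Of the classes with 20 cells or more in each library, dendritic cells had 164 ± 24.3 CPM (SD, n = 5), neutrophils 155 ± 24.0, monocytes 131 ± 10.3 and interstitial macrophages 120 ± 17.4. Interstitial macrophages were above the next class, myofibroblasts (95.5 ± 22.4), in every library, cycling immune cells (65.7 ± 7.98) above arterial endothelial cells (52.2 ± 6.68), and alveolar type 1 cells (41.4 ± 4.39) above adventitial fibroblasts (29.8 ± 2.30). Ciliated cells (13.6 ± 1.67 CPM) and erythroid cells (8.96 ± 6.72 CPM) were lowest.

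Bcl2l11 was higher in KO in the epithelial sum, at 28.7 and 25.7 CPM in Het and 39.8, 38.9 and 42.1 CPM in KO, with the groups apart (0.52, SE 0.11, edgeR adjusted p = 0.0205). This call too ended without mixed cells (0.21, adjusted p = 0.418), and with only named classes the value was -0.17 (adjusted p = 0.577); it was also lost without Het1 (adjusted p = 0.114) or Het2 (0.165). The mesenchymal markers and the cluster 9 shares given for Nrep apply to the same sums, and their part in the Bcl2l11 difference was not tested. In cluster 9 Bcl2l11 was 38.9 and 32.1 CPM in Het and 51.0, 47.9 and 51.4 CPM in KO. Immune sums, where the gene is highest, were 95.3 and 89.9 against 113, 99.9 and 95.5 CPM (0.09, adjusted p = 0.596). No class passed, and the log2 fold changes in the 17 classes tested ran from -0.32 to 0.51. With DESeq2, 0.10 in the whole library was not called either (adjusted p = 0.463). Bcl2l11 lies at chr2:128126038-128162547 on the plus strand.

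Plagl1, an imprinted zinc-finger transcription factor of fetal growth, was highest in adventitial fibroblasts. That class stood at 1048 and 1034 CPM in Het and 1067, 1257 and 1241 CPM in KO, above all 25 other classes in every library. Mesothelial cells (668 ± 235 CPM, SD, n = 5), cycling mesenchymal cells (446 ± 187, 11 cells in the smallest library), chondrocytes (392 ± 260, 3 cells in the smallest) and myofibroblasts (381 ± 31.4) followed, and no neighbours among these were separated in every library. General capillary cells held 139 ± 19.6 CPM, cycling endothelial cells (104 ± 16.6) were above secretory cells (55.8 ± 6.69) in every library, and alveolar type 2 cells (26.6 ± 4.19) were above alveolar type 1 cells (16.4 ± 6.06). Immune classes other than basophil and mast cells had 2.34 to 5.72 CPM. Interstitial macrophages, the highest of these, held 0.030 to 0.079 Plagl1 UMIs per cell and red-cell barcodes 0.0120 to 0.0316.

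No lineage or class difference of Plagl1 passed the test. In mesenchymal sums it was 525 and 520 CPM in Het and 548, 625 and 710 CPM in KO, all KO values above both Het values (0.29, SE 0.11, edgeR adjusted p = 0.330). In endothelial sums it was 166 and 224 against 131, 148 and 174 CPM, with overlapping groups (-0.34, SE 0.15, adjusted p = 0.249). Without mixed cells that value was 0.03 (adjusted p = 0.918). Within classes the log2 fold change was 0.17 in general capillary, 0.51 in arterial and 0.39 in cycling endothelial cells (edgeR adjusted p = 0.817, 0.347 and 0.323). The 6 mesenchymal markers in the endothelial sums came to 128 to 342 CPM in Het and 61.9 to 257 CPM in KO, and without mixed cells to 37.5 to 39.9 and 34.7 to 65.8 CPM. Plagl1 lies at chr10:13060504-13131694 on the plus strand, and a small RNA gene on the minus strand, Gm27741, overlaps it.

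Whether a trigger's genotype difference varied between lineages was tested by genotype by lineage terms with the library as a block. Plagl1 (edgeR adjusted p = 0.0427) and Lrrc58 (adjusted p = 0.0445) passed, 2 of 5, against 10.9% of 16656 genes. The log2 fold change of Plagl1 was lower in endothelial than in epithelial sums by a term of -0.52, and higher in immune sums by 0.34, where its counts are near free RNA. That of Lrrc58 was higher in endothelial than in epithelial sums by 0.23, and lower in immune sums by a term of -0.26. With only cells of named classes the endothelial term of Plagl1 was 0.18, and Plagl1 did not pass (edgeR adjusted p = 0.552). Nrep (adjusted p = 0.0615), Bcl2l11 (0.152) and Oip5os1 (0.599) did not pass. In some alternatives Nrep did pass: library size alone (edgeR adjusted p = 0.0360), no low-count filter (0.000175), Leiden resolutions 1 and 3 (0.0453 and 0.0430) and without KO1 (0.0108). Without mixed cells neither Plagl1 (adjusted p = 0.375) nor Lrrc58 (0.0833) passed, and leaving out Het1, Het2 or KO1 ended both (Plagl1 0.0719, 0.461 and 0.114, Lrrc58 0.176, 0.391 and 0.0811). Without KO2 only Plagl1 passed (0.0223) and without KO3 only Lrrc58 (0.0448).

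**Figure D5:**
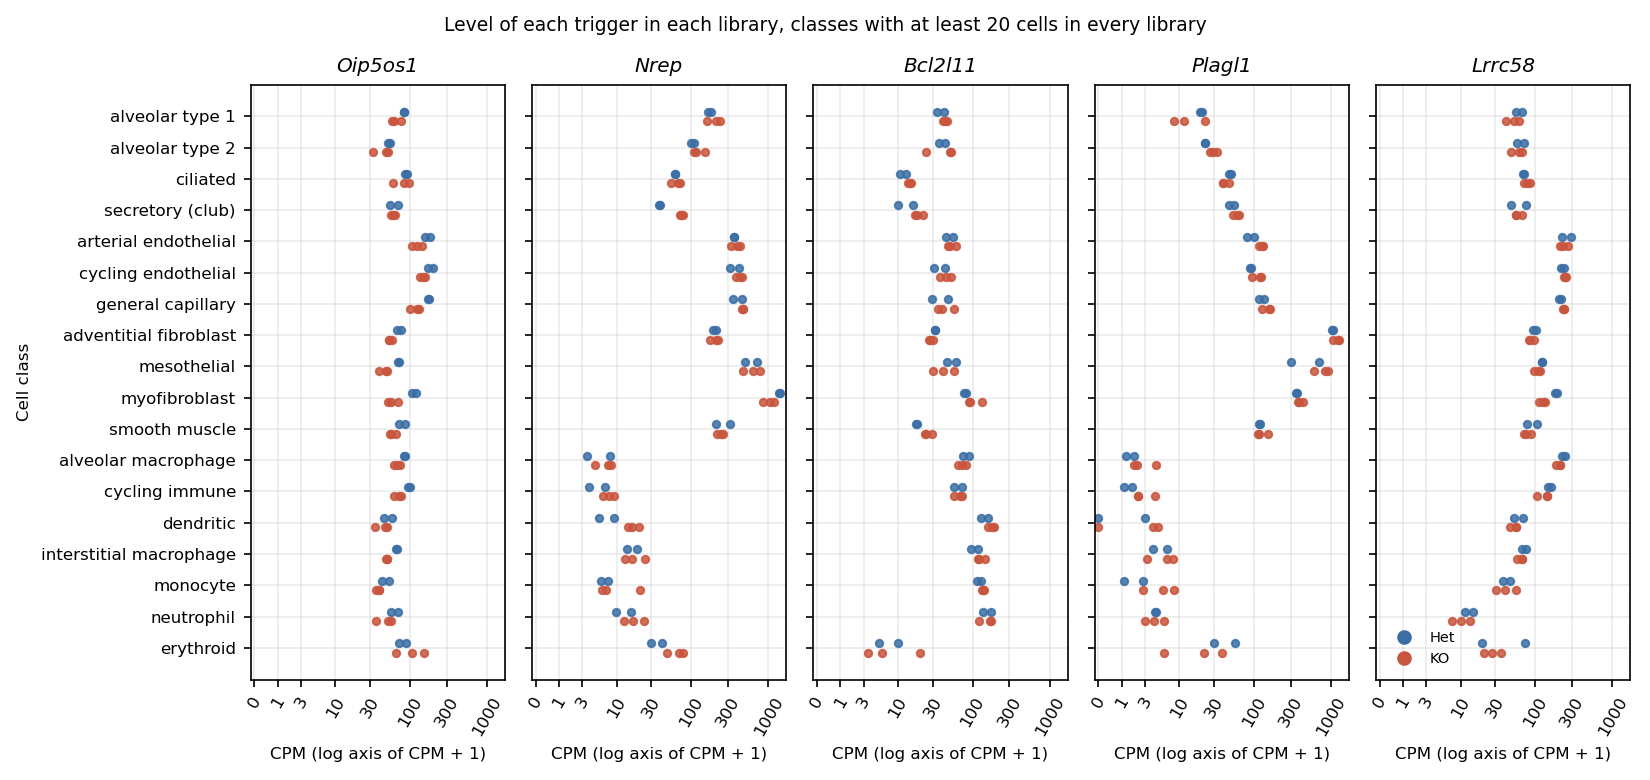
Level of each trigger in every library (horizontal log axis of CPM + 1), in the 18 classes of 20 cells or more. Points are libraries. Oip5os1 spans a narrow range over classes, while Nrep and Plagl1 fall to a few CPM in immune classes.

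Genes whose level over the 18 classes ran most like each trigger were found by the median Pearson r over the 5 libraries, across 12971 genes. Classes of 1 library share its depth, so these values are descriptions. Plagl1 ran closest to Peg3 (r = 0.955), an imprinted gene, Ndn (0.951), also imprinted, and Rcn1 (0.950). Nrep ran closest to the basement membrane genes Col4a1 (0.948) and Lamc1 (0.948) and the collagen chaperone gene Serpinh1 (0.947). Col4a1 and Lamc1 are also on the list of miR-29 targets below, as is Mcl1, named next. Bcl2l11 ran closest to Mcl1 (0.874), an inhibitor of apoptosis, Kdm6b (0.872), a histone demethylase gene, and Csrnp1 (0.864). Lrrc58 ran closest to Luzp1 (0.937), Cdv3 (0.916) and Ccny (0.911), and Oip5os1 to Shank3 (0.823), Hmbox1 (0.821) and Fam124b (0.813). Among the triggers themselves the likest pair was Nrep and Plagl1 (0.884), followed by Oip5os1 and Lrrc58 (0.635).

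Genes of the decay machinery passed the test in the epithelial sum only, and at the rate of all genes there. In the whole library 0 of 8 genes of the ligase and its activation (Zswim8, Cul3, Elob, Eloc, Rbx1, Arih1, Nedd8 and Ube2m) and 0 of 13 Argonaute and microRNA processing genes passed, with median log2 fold changes of 0.04 and 0.08 beside 0.01 for all genes. In the epithelial sum 3 of the 21 passed (14.3%), beside 13.5% of all genes. Arih1, a partner ligase of cullins, rose there (0.45, edgeR adjusted p = 0.0427), as did Tnrc6b (0.38, adjusted p = 0.0319) and Ago3 (0.48, adjusted p = 0.0469), which act in microRNA silencing. No gene of these lists passed in the endothelial, mesenchymal or immune sums.

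Listed targets of the microRNAs moved in both directions. In the whole library 4 of 42 passed (9.52%, beside 4.28% of all genes), in the epithelial sum 5 of 42 (11.9% beside 13.5%), in the endothelial sum 7 of 41 (17.1% beside 5%) and in the immune sum 8 of 42 (19% beside 7.98%). The epithelial share was thus near that of all genes. The lists were chosen with earlier results known, so these shares are descriptions. Of the 8 miR-7 targets none passed in the whole library (median -0.08 beside 0.01 for all genes). Irs1, which encodes an insulin receptor substrate, fell in the endothelial sum (-2.24), and Irs2, its relative, fell in the immune sum (-0.64), where 2 of 8 passed and the list median was -0.10. In the epithelial sum 1 of 8 passed. Of 15 miR-29 targets Tet1 (0.75) and Dnmt3b (0.52), which encode enzymes of DNA demethylation and methylation, rose in the whole library (list median 0.11), and both rose in the epithelial sum (0.97 and 0.69, list median 0.46 beside 0.02). In the endothelial sum Col4a1 (-0.51), Sparc (-0.45) and Col4a2 (-0.43), genes of the extracellular matrix, fell. In the immune sum Col4a1 (-0.76) and Sparc (-0.48) fell and Dnmt3b rose (0.58).

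Of 10 targets of miR-221 and miR-222 the transcription factor gene Ets1 fell in the whole library (-0.43) and in the endothelial sum (-0.63), where the cell cycle inhibitor gene Cdkn1c rose (0.80). Icam1, an adhesion molecule gene, rose in the epithelial (0.43) and immune sums (0.58), as did Foxo3 in the immune sum (0.38). Of 9 targets of miR-322 and miR-503 Ccne1 rose in the whole library (0.53), Cdk6 rose in the epithelial sum (0.53) and fell in the immune sum (-0.43), and Ccnd3 fell in the endothelial sum (-0.74), all of them cell cycle genes. Each of these target genes had an edgeR adjusted p under 0.05 in the fit named. No listed target passed in the mesenchymal sum. The epithelial values come from the sums in which the mixed cells and cluster 9 differed between the groups, and their part in the target genes was not tested. In the endothelial sums the 6 mesenchymal markers (values given for Plagl1) and the 6 immune markers all had a lower mean in KO. The immune sums held 40.2 to 59.7 CPM of the 6 endothelial markers in Het and 31.5 to 37.6 CPM in KO, with 0 of 6 higher in KO. The share of endothelial cells in named classes (values given for Oip5os1) also differed between the groups. The part of these markers and shares in the endothelial and immune target values was not tested.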

How the data were processed

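The authors deposited UMI counts per gene and barcode, made with Cell Ranger 4.0.0 on mm10 per the submitters' processing notes. Cells needed 500 genes or more and no more than 15% mitochondrial UMIs, and barcodes scoring highest against simulated doublets were removed (0.8% per 1000 cells). Cells were clustered without the 5 triggers (2000 variable genes, 30 principal components, leidenalg 0.10.2, resolution 2) and named from markers (Python 3.11.15, scikit-learn 1.9.0). A class needed at least 3 markers in 20% or more of the cells, and it led the next class by 0.25 on the log2 scale. These names are rebuilt and may differ from the study's own. Other clusters stayed unnamed and entered only the sums of their lineage and library.

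UMIs were summed per library over all cells, lineages and classes and compared by edgeR 4.0.16 quasi-likelihood tests (TMM scaling, a low-count filter, two-sided p, threshold 0.05 after Benjamini-Hochberg adjustment over all genes tested). CPM values use the plain total of the summed cells, and fold changes the TMM-scaled one. Genes were named by rule: the 5 triggers, Oip5, the genes of the lists past the threshold (at most 3 per list and fit) and the 3 genes most like each trigger. Some genes of the lists are not reported here. The triggers, lists and markers were chosen with earlier results of these data known, and the lists support nothing by themselves. Alternatives were DESeq2 1.42.0, library size alone, no low-count filter, doublets kept, a stricter cell filter (1000 genes, 10% mitochondrial), mixed cells left out, Leiden resolutions 1 and 3, sex as a covariate, leaving out 1 library at a time, and a block for the replicate number.

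The fits were tested on simulated counts. In the whole library 35.7% of genes changed 1.5-fold and 56% of those changed 2-fold were recovered (17538 genes), in immune sums 57.6% and 80% (13598 genes), in endothelial sums 19.2% and 68% (11558 genes), and in myofibroblasts 8.33% and 59.4% (7989 genes). False calls among unchanged genes numbered 10 in the whole library, beside 35 and 56 genes recovered at 1.5-fold and 2-fold. They numbered 9 in immune sums (beside 57 and 80), 5 in endothelial sums (19 and 68) and 6 in myofibroblasts (8 and 57). Red-cell barcodes were those with over 50% haemoglobin UMIs and under 500 genes. No correction for free RNA was made.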

Additional observations from a re-analysis of the deposited data

Results flagged for a closer look

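The difference between KO and Het varied between lineages for 2 triggers by the genotype by lineage test (edgeR, library as a block). Plagl1 had an adjusted p of 0.0427, with log2 fold changes of 0.21 in epithelial, -0.34 in endothelial, 0.29 in mesenchymal and 0.55 in immune sums. Lrrc58 had an adjusted p of 0.0445, with -0.18, 0.02, -0.30 and -0.44 in the same order. In endothelial classes the Plagl1 value was 0.17 (general capillary), 0.51 (arterial) and 0.39 (cycling), none of which passed. With only cells of named classes the genotype by lineage test of Plagl1 did not pass (edgeR adjusted p = 0.552). Mesenchymal markers in the endothelial sums came to 128 to 342 CPM in Het and 61.9 to 257 CPM in KO, overlapping ranges with 0 of 6 markers higher in the KO mean, and their part in the Plagl1 result was not tested.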

How the results depend on the processing

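In the whole library, where 3 triggers passed, 1 passed with library size alone, 1 without the low-count filter, 1 with doublets kept, 4 with DESeq2, 0 with sex in the fit, and 0 to 3 with 1 library left out. In the lineages 5 passed, and 3 did so without mixed cells, 3 with sex in the fit, 3 with only cells of named classes (chosen after seeing the data) and 1 to 5 with 1 library left out. In the classes 4 passed, and 0 did so with sex in the fit and 0 to 6 with 1 library left out. Of the genotype by lineage terms 2 passed, and 0 did so with doublets kept, 0 without mixed cells, 1 with the stricter cell filter, 1 with only named classes and 0 to 1 with 1 library left out. Leaving out a Het library leaves 1, which is assumed to vary like the KO libraries. With only named classes Bcl2l11 in epithelial sums reversed to -0.17 (adjusted p = 0.577). The causes were not tested, apart from sums that hold fewer cells or libraries.

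The replicate numbers are shared by Het1 and KO1 and by Het2 and KO2 only. Deviations of same-numbered libraries had r = -0.096 and -0.065 over 17747 genes. With 2 Het libraries the Het deviations mirror each other (Het2 and KO1 had r = 0.096). These values thus cannot decide whether the numbers pair the samples, and the fits treated the libraries as unpaired. With the replicate block 0 triggers passed in the whole library, 5 in the lineages and 8 in the classes. Over all genes of the whole library 759 passed, 628 with library size alone, 2209 with DESeq2, 303 without mixed cells and 56 with the block. With library size alone the share of called genes that were higher in KO went from 27.4% to 36.1% in the whole library, from 42.7% to 61.4% in immune sums and from 31.5% to 72.3% in alveolar macrophages.

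The highest class of each trigger among those with 20 cells or more in each library (for Bcl2l11 dendritic cells) kept its mean level within the SD of the libraries in every alternative set of cells run. Of 1028 alternative values of single comparisons, 58 had the other sign, 1 of them for a difference that had passed (Bcl2l11, above). Groups of 2 and 3 embryos and the UMI depth of small classes limit what was detectable, and a difference that did not pass is not shown to be absent.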
